A study of Mus musculus with 4 samples.

Results

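The genes described here are 10 regulators of heart fate: the zinc finger factors Gata4, Gata5 and Gata6, the basic helix-loop-helix factors Hand1 and Hand2, the T-box factors Tbx5 and Tbx20, the homeodomain factor Nkx2-5, the MADS-box factor Mef2c and the histone methyltransferase Smyd1. They were taken by symbol, 10 of the 52636 genes in the deposited count tables. The set was chosen because Gata4, Tbx20 and Hand2 had high read counts in the mutant libraries and counts near 0 in the controls. The difference between the groups therefore chose the genes, and their values are given as a description. No p of a single member is given, and counts of calls among them support nothing.

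RNA was sequenced from mouse otic cells that had been sorted by fluorescence out of otocysts, the vesicles from which the inner ear forms. Each library was made from 3000 cells with a strand-specific SMART-seq kit that primes RNA at random positions, and was read as 75 bp single-end reads. There were 2 libraries with the genotype Brg1cKO, a conditional knockout of Brg1, and 2 libraries with the genotype Control. Brg1, encoded by Smarca4, is an ATPase of the BAF chromatin remodelling complexes. The conditional allele, the Cre driver, the stage, the number of embryos behind each library and the alleles of the Control embryos were not found in the labels. The labels call the tissue of all 4 libraries otic ectoderm.

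Heart progenitors arise in lateral plate and pharyngeal mesoderm, where BMP and other signals switch on a small group of transcription factors. These factors bind one another and one another's genes, and together they turn on genes for contractile proteins. BAF complexes with BRG1 are known partners of Gata4, Tbx5 and Nkx2-5 in the developing heart. Several of the factors also act elsewhere: Hand1 and Hand2 in neural crest and pharyngeal arches, Gata4 and Gata6 in endoderm, and Mef2c in endothelium, neural crest and macrophages.

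The RefSeq promoter windows of 4 members are shown here: Hand2, Smyd1 and Gata5, which had no read in at least 1 control, and Tbx20, 1 of the genes behind the choice. Each window runs from 250 bases before the RefSeq start to 50 bases after it, in the build GRCm38.p6 (mm10), and is written 5′ to 3′ on the strand of the gene. Windows of 6 of the 10 members were used, 8 windows in all, and Gata4, Gata6, Hand1 and Tbx5 are named only. Capitals mark matches to any of 7 motifs, searched on both strands: the GATA motif (GATA with A or T before it and A or G after it), the E-box CATCTG, the T-box core GGTGTG, the NKX2 motif TNAAGTG, the TATA box TATAAA, and the MEF2 motif and CArG box by name.
Hand2, chr8:57320733-57321032, plus strand: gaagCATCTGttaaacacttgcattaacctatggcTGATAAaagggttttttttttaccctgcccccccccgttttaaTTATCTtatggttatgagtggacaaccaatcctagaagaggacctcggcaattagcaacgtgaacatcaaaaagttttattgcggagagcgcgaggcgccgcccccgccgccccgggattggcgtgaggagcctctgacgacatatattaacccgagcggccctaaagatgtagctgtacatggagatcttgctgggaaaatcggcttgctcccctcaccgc
Tbx20, chr9:24774254-24774553, minus strand: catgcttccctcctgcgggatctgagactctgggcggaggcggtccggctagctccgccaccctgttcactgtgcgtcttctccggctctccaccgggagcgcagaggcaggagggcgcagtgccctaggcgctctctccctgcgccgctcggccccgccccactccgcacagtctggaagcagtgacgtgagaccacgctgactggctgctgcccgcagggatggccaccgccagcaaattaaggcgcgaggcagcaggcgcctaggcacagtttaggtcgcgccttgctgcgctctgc
Smyd1, chr6:71262232-71262531, minus strand: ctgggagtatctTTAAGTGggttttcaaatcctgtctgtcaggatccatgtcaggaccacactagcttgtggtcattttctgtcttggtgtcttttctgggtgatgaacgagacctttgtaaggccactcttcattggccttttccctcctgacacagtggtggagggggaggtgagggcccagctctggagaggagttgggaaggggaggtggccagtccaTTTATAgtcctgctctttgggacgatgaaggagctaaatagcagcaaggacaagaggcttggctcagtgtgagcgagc
Gata5, chr2:180334630-180334929, minus strand: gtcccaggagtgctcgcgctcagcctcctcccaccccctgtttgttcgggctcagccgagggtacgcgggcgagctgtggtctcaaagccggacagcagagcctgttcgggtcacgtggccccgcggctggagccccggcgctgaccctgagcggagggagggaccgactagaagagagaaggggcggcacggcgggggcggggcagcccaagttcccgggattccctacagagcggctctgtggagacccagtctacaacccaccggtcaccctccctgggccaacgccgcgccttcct

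The Hand2 window held 2 GATA motifs, with first bases at -215 and -172 from the start, and the E-box CATCTG at -246. Of the 8 windows, 1, that of Hand2, held a GATA motif, which 29.8% of the 32851 RefSeq promoters of that length held. CATCTG stood in 17.2% of them. The Smyd1 window held the NKX2 motif at -238 and, on the reverse strand, the TATA box letters at -28, which stood in 11.5% and 13.6% of promoters. The Tbx20 and Gata5 windows held none of the 7 motifs. GGTGTG, the MEF2 motif and the CArG box stood in 19.0%, 3.19% and 1.63% of promoters. No match in the 4 windows overlapped another. A match is a description of letters and says nothing of binding.

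The libraries held 29361382 and 25875555 gene reads in Brg1cKO and 15357265 and 19132360 in Control, with reads from 20859 and 20902 genes in Brg1cKO and from 17266 and 17086 genes in Control. Records that lay in genes made up 64.0% and 63.7% of all records in Brg1cKO and 48.2% and 49.3% in Control. The log2 ratio between the replicates had an SD over genes of 1.27 in Brg1cKO and 2.30 in Control. Depth, genes seen and replicate noise thus moved with genotype. A fit at equal depth is given at the end, and the part of genes seen and replicate noise in the results was not tested. Smarca4, counted over the whole gene, had 891 and 848 CPM (reads of a gene relative to the TMM-scaled total of its library) in Brg1cKO and 816 and 815 CPM in Control (edgeR adjusted p = 0.817). The deleted exons are not given, so a whole-gene count checks the genotype only in part. Sox2, the otic neurosensory factor, had 30.1 and 33.6 CPM in Brg1cKO and 12.1 and 16.7 CPM in Control (edgeR adjusted p = 0.511). The labelled tissue was checked with 16 otic vesicle markers, which summed to 334 and 349 CPM in Brg1cKO and to 1773 and 2006 CPM in Control. Of these, 14 lay below both controls in both Brg1cKO libraries, an order that 12.6% of genes with a read shared. Oc90, an otic vesicle matrix protein, fell, with 44.6 and 49.1 CPM in Brg1cKO against 782 and 732 CPM in Control (edgeR adjusted p = 0.000326).

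All 10 heart fate regulators had higher CPM in both Brg1cKO libraries than in either Control library, an order that 22.8% of the 25174 genes with at least 1 read shared. The choice of the genes fixes that count, so nothing is read from it. Their summed level was 635 and 614 CPM in Brg1cKO and 82.0 and 132 CPM in Control. The gap between the groups was smallest for Mef2c, Gata6 and Hand1. Their lower Brg1cKO value was 1.26, 3.77 and 3.93 times the higher Control value. The size of the gap in the other members is also bound to the choice of the genes. In bulk libraries, more cells of a type and more RNA per cell cannot be told apart.

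**Figure D1:**
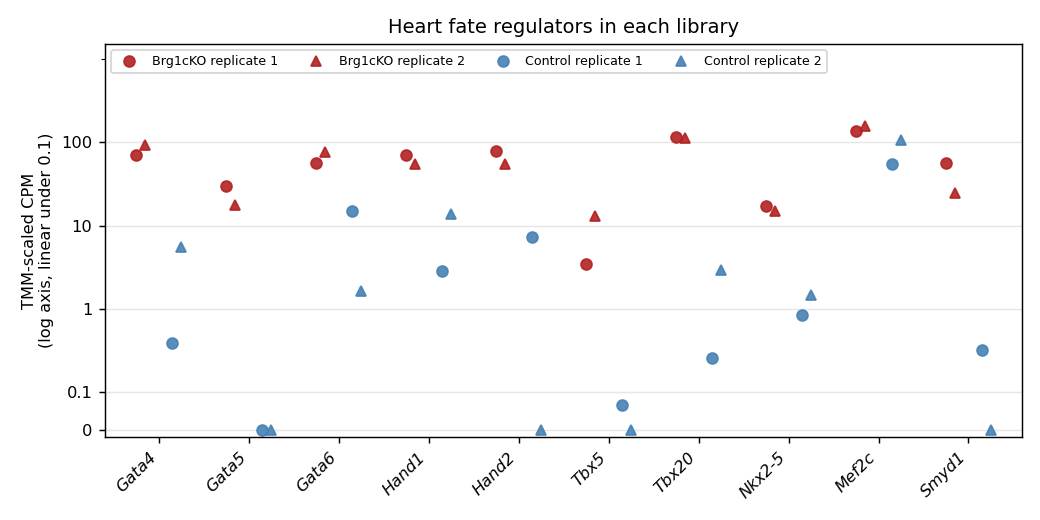
TMM-scaled CPM of the 10 heart fate regulators in each of the 4 libraries, on a log axis that is linear under 0.1 CPM; each point is 1 library, with Brg1cKO left of Control for each gene. The Brg1cKO points lie above both Control points for all 10 genes, with the smallest gap for Mef2c (135 and 156 CPM in Brg1cKO, 55.1 and 107 CPM in Control), and points at 0 mark libraries with no read.

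Among the GATA factors, Gata4, which activates many cardiac genes with Nkx2-5 and Tbx5, had 2076 and 2377 reads in Brg1cKO and 6 and 103 reads in Control. That was 70.9 and 91.7 CPM in Brg1cKO and 0.390 and 5.46 CPM in Control. The counting interval (95%, exact Poisson) of the lowest of these, Control replicate 1, ran from 0.143 to 0.848 CPM, so the 2 controls differed by more than the counting error of reads. The Brg1cKO libraries lay close together and far above both controls. The fitted log2 fold change of Brg1cKO over Control was 4.78 ± 1.05 (SE, n = 2 each).

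Gata5, known from endocardium and from heart tube formation in fish, had no read in either control. Its counts were 877 and 459 reads in Brg1cKO and 0 and 0 reads in Control, or 29.95 and 17.7 CPM in Brg1cKO. The pooled Brg1cKO reads, scaled for depth, were at least 276-fold higher than 3 counts over both controls together. This limit covers counting error only. Gata6, which acts in heart, vessels and endoderm, was not near 0 in the controls. It had 56.4 and 75.5 CPM in Brg1cKO and 14.9 and 1.64 CPM in Control, a log2 fold change of 2.99 ± 0.940 (SE). Control replicate 1 was the higher control for Gata6 and the lower for Gata4, so the controls did not rank the GATA factors in the same order.

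The HAND factors drive growth of the ventricles. Hand1, which marks the left ventricle and extraembryonic mesoderm, had 2062 and 1418 reads in Brg1cKO and 44 and 262 reads in Control. Its level was 70.4 and 54.7 CPM in Brg1cKO and 2.86 and 13.9 CPM in Control, a log2 fold change of 2.90 ± 0.767 (SE). Hand2, which marks the right ventricle and is also needed in pharyngeal arches and sympathetic neurons, had 2320 and 1419 reads in Brg1cKO and 112 and 0 reads in Control. Its level was 79.2 and 54.7 CPM in Brg1cKO and 7.28 and 0 CPM in Control, a log2 fold change of 4.21 ± 1.57 (SE). The groups did not overlap for either gene, but all of Hand2's Control reads came from replicate 1 and most of Hand1's from replicate 2.

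Tbx20 and Tbx5 are the T-box members. Tbx20, a repressor and activator needed for chamber growth, had 3418 and 2866 reads in Brg1cKO and 4 and 55 reads in Control. Its level was 117 and 111 CPM in Brg1cKO and 0.260 and 2.92 CPM in Control, a log2 fold change of 6.13 ± 0.941 (SE). The Brg1cKO libraries differed least for this gene, by 1.06 times. Tbx5, a factor of heart and forelimb, had the lowest level of the members in Brg1cKO. It had 101 and 340 reads in Brg1cKO and 1 and 0 reads in Control, or 3.45 and 13.1 CPM in Brg1cKO and 0.0650 and 0 CPM in Control. The ratio of pooled reads, scaled for depth, was 274, with a counting interval of 48.8 to 10827, since 1 Control read sets it. The Brg1cKO replicates differed by 3.80 times, the widest gap of any member in that group.

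Nkx2-5, the homeodomain factor of early heart progenitors, had 506 and 388 reads in Brg1cKO and 13 and 28 reads in Control. Its level was 17.3 and 14.96 CPM in Brg1cKO and 0.845 and 1.49 CPM in Control, a log2 fold change of 3.78 ± 1.20 (SE). The replicates differed by 1.15 times in Brg1cKO and by 1.76 times in Control. Mef2c, which binds many muscle gene promoters, was the exception among the members. It had 3952 and 4056 reads in Brg1cKO and 848 and 2015 reads in Control, or 135 and 156 CPM in Brg1cKO and 55.1 and 107 CPM in Control. Its log2 fold change was 0.85 ± 0.349 (SE), and the lower Brg1cKO value was 1.26 times the higher Control value. Smyd1, a muscle methyltransferase known as a target of Mef2c and a regulator of Hand2 in mouse heart, had 1643 and 631 reads in Brg1cKO and 5 and 0 reads in Control. Its level was 56.1 and 24.3 CPM in Brg1cKO and 0.325 and 0 CPM in Control, a log2 fold change of 7.98 ± 1.40 (SE), and the Brg1cKO replicates differed by 2.31 times.

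All 10 genes passed the filter on low counts, 6 of them only through the Brg1cKO libraries, so they had to be higher there. The other 4, Gata6, Hand1, Nkx2-5 and Mef2c, were over the filter's 0.444 CPM in both controls. In edgeR's quasi-likelihood test over all 16557 genes, 0 of the 10 were called at an adjusted p under 0.05, beside 0.0302% of all genes (0.0121% higher and 0.0181% lower in Brg1cKO). At an unadjusted p under 0.05, 10 of 10 were higher in Brg1cKO, beside 7.66% of all genes, while 4.80% of all genes were lower. With DESeq2, 8 were called higher, beside 8.33% of genes higher and 6.30% lower. With limma voom 0 were called, beside 0.121% of genes higher and 0.205% lower. The genes were chosen on this contrast, so these counts only describe how each tool ranks it.

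Levels can be compared between genes as TMM-scaled reads per kilobase of exon on the CPM scale (RPKM). In Brg1cKO the HAND factors and Gata4 stood highest, with mean RPKM of 31.3 for Hand1, 28.5 for Hand2 and 20.8 for Gata4. The libraries of Hand1 (35.3 and 27.4 RPKM) and Hand2 (33.7 and 23.3 RPKM) overlapped, as did those of Hand2 and Gata4 (18.2 and 23.5 RPKM). Next came Gata6 at 10.1, Tbx20 at 9.47, Nkx2-5 at 9.38, Mef2c at 9.27, Smyd1 at 8.85 and Gata5 at 7.27 RPKM, and neighbours in this order overlapped. Tbx5 lay apart at 1.77 RPKM. The order differed in Control, where Mef2c led with a mean of 5.15 RPKM, before Hand1 at 4.20, Hand2 at 1.55, Gata6 at 1.27, Gata4 at 0.750, Nkx2-5 at 0.678 and Tbx20 at 0.132 RPKM. Smyd1 at 0.0357, Tbx5 at 0.00695 and Gata5 at 0 RPKM closed it. Neighbours overlapped in this order except Nkx2-5 and Tbx20. Among protein-coding genes, Hand1 stood at percentile 93.3 of mean RPKM in Brg1cKO and 61.0 in Control. Hand2 stood at 92.3 in Brg1cKO and 49.5 in Control, and Tbx5 at 50.5 in Brg1cKO and 33.8 in Control.

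**Figure D2:**
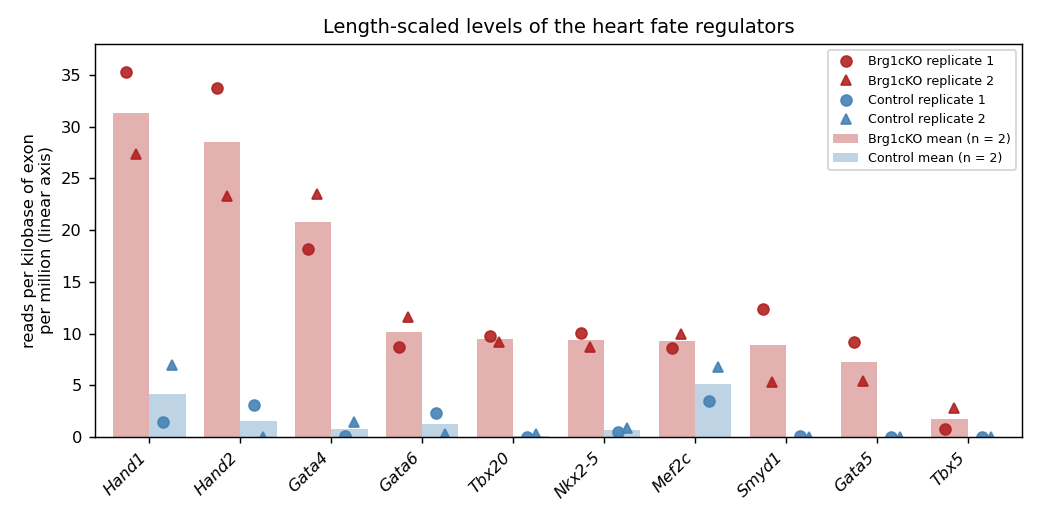
Length-scaled level of each heart fate regulator in RPKM on a linear axis; bars are means of 2 libraries, points are single libraries, and Brg1cKO stands left of Control. Hand1, Hand2 and Gata4 lead in Brg1cKO at means of 31.3, 28.5 and 20.8 RPKM, and Mef2c is the member with the highest Control mean, 5.15 RPKM.

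The Brg1cKO libraries agreed on the members far more than the controls did. The members that differed most between the Brg1cKO replicates were Gata5 (1.69 times), Smyd1 (2.31) and Tbx5 (3.80). Between the controls, Gata4 differed by 14.0 times, Tbx20 by 11.2, Gata6 by 9.08 and Hand1 by 4.86. Control replicate 2 had no read of Gata5, Hand2, Tbx5 or Smyd1, and Control replicate 1 had none of Gata5. The replicate with more was not always the same: 4 members were higher in Control replicate 1 and 5 in Control replicate 2. Some fold changes therefore depend on which control is used. The log2 fold change of Gata4 was 3.90 without Control replicate 1 and 7.67 without Control replicate 2. In the same order it was 5.29 and 8.72 for Tbx20, 2.17 and 4.43 for Hand1, 5.32 and 2.12 for Gata6, 3.44 and 4.23 for Nkx2-5, and 0.45 and 1.38 for Mef2c. Without Control replicate 2 it was 3.18 for Hand2 and 6.91 for Smyd1. Without Control replicate 1 the remaining control had no read of Hand2, Smyd1 or Tbx5, so their fitted values (13.69, 12.96 and 10.68) are no measure of size. All of these values were positive.

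The 10 genes lie on 10 different chromosomes, so no pair shares a neighbourhood. In mm10, Gata4 (ENSMUSG00000021944) spans chr14:63198922-63271692 on the minus strand, Tbx20 (ENSMUSG00000031965) spans chr9:24718138-24774303 on the minus strand and Hand2 (ENSMUSG00000038193) spans chr8:57320983-57324633 on the plus strand. GENCODE M21 places 36 other genes within 50 kb of them, of which 18 had at least 10 reads in a library and 15 were tested. Of the 18, 7 lay above both controls in both Brg1cKO libraries and 2 lay below, beside 22.8% and 12.6% of all genes with a read. By edgeR 0 were called (0.0302% of all genes). At an unadjusted p under 0.05, 4 were higher and 1 lower, beside 7.66% and 4.80% of all genes. Of the higher, Gm34030, 5033428I22Rik and 1010001N08Rik passed the filter only through Brg1cKO and had to be higher. The other, Hand2os1, shares exonic bases with Hand2, so the count of 4 is no support. DESeq2 called 5, where it called 8.33% of all genes higher and 6.30% lower. The region of Hand2 held 3 non-coding genes that, like Hand2, lay above both controls in both Brg1cKO libraries. Hand2os1, an RNA that overlaps Hand2, shares 461 exonic bases with it on the opposite strand. It had 49.8 and 39.5 CPM in Brg1cKO and 3.83 and 2.71 CPM in Control, a log2 fold change of 3.77 ± 0.633 (SE; edgeR adjusted p = 0.121). 5033428I22Rik, which lies 7485 bases away on the same strand as Hand2, had 34.8 and 12.7 CPM in Brg1cKO and 0.130 and 0 CPM in Control (edgeR adjusted p = 0.169). Gm34030, 7059 bases away on the opposite strand, had 54 and 61 reads in Brg1cKO and 0 and 0 reads in Control, at least 23.8-fold higher against 3 counts over both controls. The strand setting of the counting is not given, so reads of Hand2 and Hand2os1 in the shared bases cannot be told apart.

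**Figure D3:**
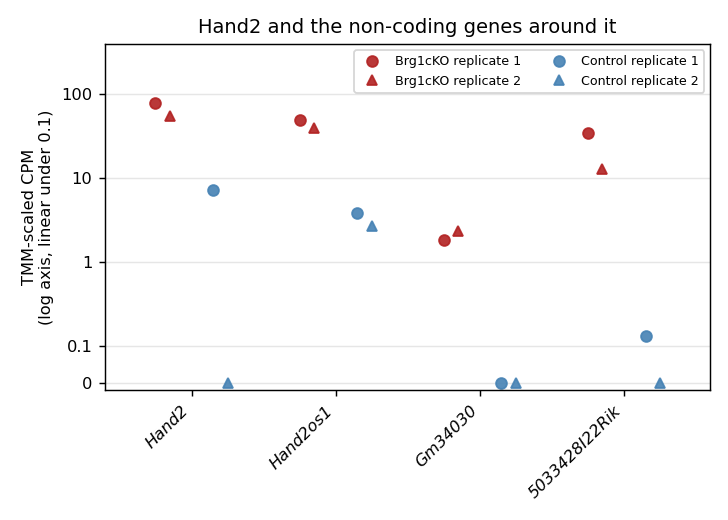
TMM-scaled CPM of Hand2 and 3 non-coding genes around it in each library, on a log axis that is linear under 0.1 CPM, with Brg1cKO left of Control. All 4 genes have both Brg1cKO points above both Control points, and Gm34030 has no read in either control.

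Neighbours of the other members moved less evenly. 1010001N08Rik, which overlaps Gata6 on the opposite strand over 93 exonic bases, had 35 and 87 reads in Brg1cKO and 0 and 0 in Control, at least 25.2-fold higher against the same floor. Gm43050, 748 bases from Tbx5 on the opposite strand, had 39 and 6 reads in Brg1cKO and 0 and 0 in Control, at least 9.30-fold higher. Gata5os, which shares 258 exonic bases with Gata5, had 13 and 0 reads in Brg1cKO and 0 and 0 in Control. Neil2, a DNA repair glycosylase gene 5066 bases from Gata4, lay the other way, at 2.87 and 0.964 CPM in Brg1cKO and 29.5 and 5.52 CPM in Control (edgeR adjusted p = 0.385). Fdft1, a cholesterol synthesis gene on the far side of Neil2, had 72.7 and 66.0 CPM in Brg1cKO and 55.9 and 39.3 CPM in Control.

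The paralogs of the members did not share their pattern as a group. Of 31 paralogs, 23 were tested and edgeR called 0. At an unadjusted p under 0.05, 2 were higher (Tbx4 and Nkx2-1) and 3 lower (Tbx2, Gata3 and Nkx2-2); DESeq2 called 2 higher and 3 lower, and limma voom 1 lower, Tbx2. Over all genes tested the shares were 7.66% higher and 4.80% lower at an unadjusted p under 0.05 and 8.33% higher and 6.30% lower by DESeq2, so the paralogs' 2 higher calls are near the background. Among the tested paralogs, 1 T-box gene and 1 NK2 gene had no read in either control, so they had to be higher. Gata2 and Gata3, blood and ear factors, were well above 0 in Control. Gata3 had 23.7 and 27.7 CPM in Brg1cKO and 85.1 and 57.7 CPM in Control, a log2 fold change of -1.47 ± 0.407 (SE; edgeR adjusted p = 0.328). Gata2 had 58.1 and 50.5 CPM in Brg1cKO and 31.1 and 46.6 CPM in Control. Tbx2, a repressor of chamber genes that also acts in the otocyst, had 60.7 and 74.5 CPM in Brg1cKO and 392 and 215 CPM in Control, a log2 fold change of -2.17 ± 0.315 (SE; edgeR adjusted p = 0.0957). Tbx1, a pharyngeal and otic factor, had 90.6 and 151 CPM in Brg1cKO and 197 and 128 CPM in Control. Of the other MEF2 genes, Mef2d had 139 and 161 CPM in Brg1cKO and 122 and 141 CPM in Control. Mef2a had 177 and 105 CPM in Brg1cKO and 38.8 and 153 CPM in Control. Smyd2 to Smyd5 had reads in all 4 libraries.

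**Figure D4:**
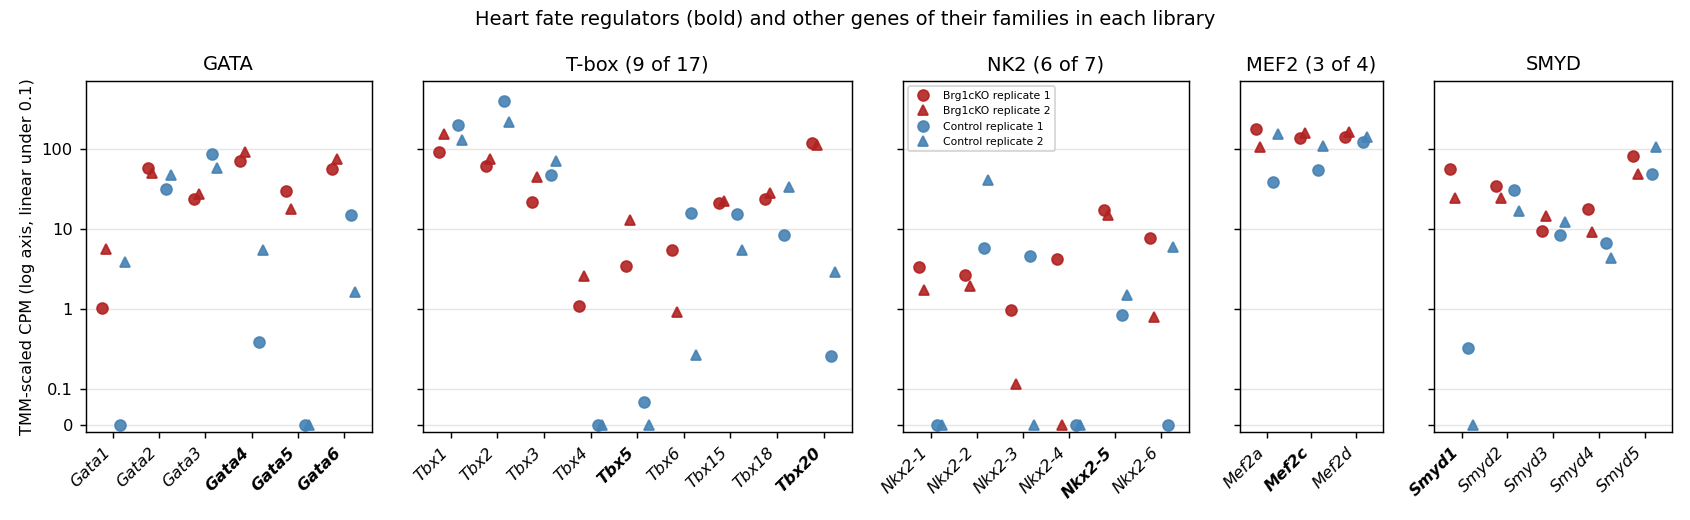
TMM-scaled CPM of the members (bold) and their paralogs in each library, on a log axis that is linear under 0.1 CPM, with Brg1cKO left of Control; 9 of 17 T-box genes, 6 of 7 NK2 genes and 3 of 4 MEF2 genes are drawn. Tbx2 and Gata3 have both Brg1cKO points below both Control points, while Gata4, Gata5, Tbx5, Tbx20, Nkx2-5 and Smyd1 have both far above.

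Genes for the contractile apparatus are textbook targets of these factors. Of 29 sarcomere genes, 26 were tested and all 26 had a positive log2 fold change, with a median of 4.38 beside 0.03 over all genes tested. Some of the 26, such as Actn2, Myl2 and Myl3, passed the filter on low counts only through the Brg1cKO libraries. They had to be higher there, so their sign is no support. Only 14 of the 29 had a read in every library, and 3 of the 26 tested had none in either control. The median and the counts of calls given here include the genes that had to be higher, and are to be read with that limit. In 25 of the 29, both Brg1cKO libraries lay above both controls, beside 22.8% of genes. By edgeR 0 were called at an adjusted p under 0.05, beside 0.0302% of all genes. At an unadjusted p under 0.05, 21 were higher and 0 lower, beside 7.66% and 4.80% of all genes. DESeq2 called 19, all higher, where it called 8.33% of all genes higher and 6.30% lower. With limma voom 1 was called, Myh7, beside 0.121% of all genes higher and 0.205% lower. Myh6, the fast cardiac myosin heavy chain, had 113 and 119 CPM in Brg1cKO and 17.99 and 7.64 CPM in Control, a log2 fold change of 3.18 ± 0.487 (SE; edgeR adjusted p = 0.110). Myl3, a ventricular light chain, had 25.4 and 21.4 CPM in Brg1cKO and no read in Control, at least 269-fold higher against 3 counts over both controls. Actn2, the Z-disc actinin, had 31.9 and 27.0 CPM in Brg1cKO and 0 and 0.159 CPM in Control (edgeR adjusted p = 0.121). Tpm1, the most abundant of the list and expressed outside muscle too, had 537 and 575 CPM in Brg1cKO and 387 and 465 CPM in Control. In all, 6 of the 29 had no read in either control, and Mypn had none in any library.

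Calcium, conduction and peptide genes of heart muscle were more mixed. Of 20 genes, 15 were tested and edgeR called 0. At an unadjusted p under 0.05, 5 were higher and 2 lower, beside 7.66% and 4.80% of all genes. DESeq2 gave the same counts, beside 8.33% of all genes higher and 6.30% lower. The median log2 fold change was 0.82. Of the 15 tested, 3 had no read in either control. They passed the filter only through Brg1cKO and had to be higher, so their sign and calls are no support. Popdc2, a cAMP-binding protein of heart muscle, had 30.8 and 13.5 CPM in Brg1cKO and no read in Control, at least 259-fold higher against 3 counts over both controls. Kcnh2, a repolarising potassium channel, had 31.1 and 42.8 CPM in Brg1cKO and 6.63 and 15.1 CPM in Control, a log2 fold change of 1.77 ± 0.653 (SE; edgeR adjusted p = 0.368). Nppa, the atrial peptide and a textbook target of Nkx2-5, Gata4 and Tbx5, had 1 read in the 4 libraries together. Gja1, a gap junction protein of many tissues, lay lower, at 157 and 157 CPM in Brg1cKO and 227 and 203 CPM in Control.

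Other regulators of heart formation did not follow the members as a list. Of 32 genes, 29 were tested, with a median log2 fold change of -0.22, and of 0.08 without Control replicate 2, where the median over all genes was 0.29. By edgeR 0 were called. At an unadjusted p under 0.05, 3 were higher and 5 lower, beside 7.66% and 4.80% of all genes. DESeq2 gave the same counts, beside 8.33% of all genes higher and 6.30% lower. Limma voom called Tbx2 lower, beside 0.205% of all genes. Foxh1, 1 of the 3 higher at an unadjusted p under 0.05, had no read in either control. It passed the filter only through Brg1cKO and had to be higher. Zfpm1, a cofactor of GATA proteins, had 187 and 204 CPM in Brg1cKO and 84.3 and 83.5 CPM in Control, a log2 fold change of 1.22 ± 0.215 (SE; edgeR adjusted p = 0.128). Isl1, the factor of the second heart field that is also active in otic cells, had 42.6 and 29.2 CPM in Brg1cKO and 78.9 and 87.6 CPM in Control, a log2 fold change of -1.21 ± 0.367 (SE; edgeR adjusted p = 0.365). Prdm16, a zinc finger regulator, had 41.6 and 48.1 CPM in Brg1cKO and 87.9 and 87.7 CPM in Control (edgeR adjusted p = 0.368). Mesp1 and Mesp2, which mark the earliest heart mesoderm, had no read in any library.

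Signals that induce heart fate showed 0 calls of 18 tested genes by edgeR, beside 0.0302% of all genes. At an unadjusted p under 0.05 there were 0, beside 12.5% of all genes in either direction. DESeq2 called 1 higher, Bmp2, where it called 8.33% of all genes higher and 6.30% lower. Bmp2 had 8.64 and 16.3 CPM in Brg1cKO and 1.10 and 0 CPM in Control (edgeR adjusted p = 0.460). Notch1 had 355 and 272 CPM in Brg1cKO and 282 and 298 CPM in Control. Among 12 regulators of skeletal muscle, 8 were tested and edgeR called 0. At an unadjusted p under 0.05, 2 were higher and 2 lower, beside 7.66% and 4.80% of all genes. DESeq2 also gave 2 higher and 2 lower. Of the 8 tested, 2 had no read in either control, passed the filter only through Brg1cKO and had to be higher. Myod1, the master regulator of skeletal muscle, had 0 and 0.154 CPM in Brg1cKO and 1.23 and 26.9 CPM in Control.

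**Figure D5:**
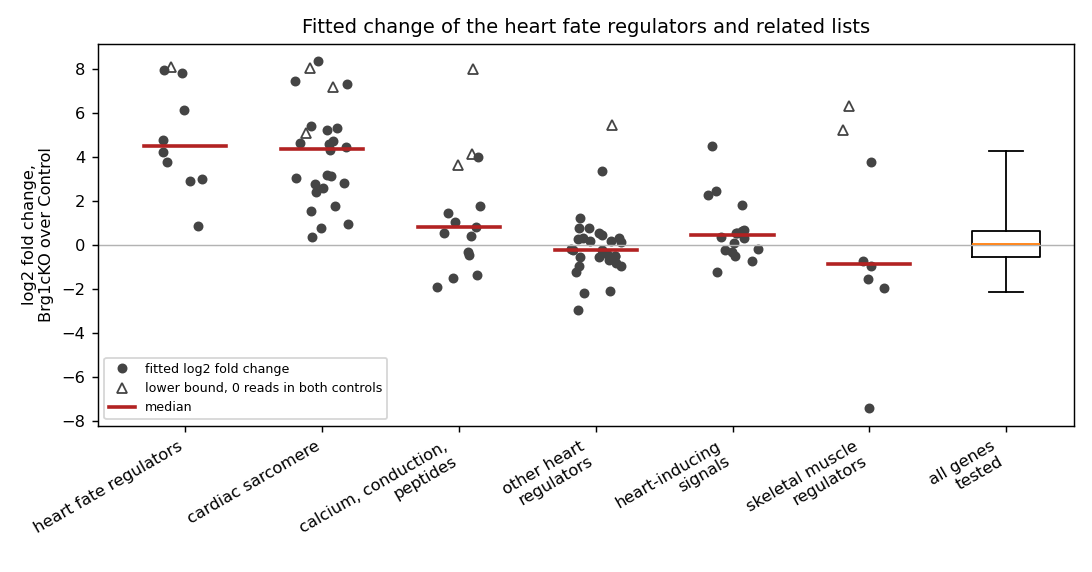
Fitted log2 fold change of Brg1cKO over Control for each tested gene of the members and 5 related lists (points; open triangles are lower bounds for genes with 0 reads in both controls), with the list median as a red line; the box gives the quartiles of all genes tested and its whiskers the percentiles 5 and 95. All 26 tested sarcomere genes, some of which passed the filter only through Brg1cKO, lie above 0 with a median of 4.38. The other heart regulators have a median of -0.22.

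Several lists of cell type markers also lay higher in Brg1cKO. Beside the counts given here, 22.8% of all genes with a read lay above both controls in both Brg1cKO libraries and 12.6% lay below. The 12 cardiomyocyte markers, all of them in the sarcomere or calcium lists, summed to 750 and 747 CPM in Brg1cKO and to 182 and 100 CPM in Control, and 11 of 12 lay above both controls. The epicardium and mesothelium markers summed to 89.4 and 107 CPM in Brg1cKO and to 19.4 and 41.2 CPM in Control, with 6 of 8 above. The smooth muscle markers summed to 338 and 360 CPM in Brg1cKO and to 150 and 177 CPM in Control, with 7 of 8 above. Endocardium markers other than Gata5 summed to 1702 and 1702 CPM in Brg1cKO and to 1157 and 1003 CPM in Control. The macrophage markers summed to 1446 and 1375 CPM in Brg1cKO and to 341 and 329 CPM in Control, with 12 of 12 above, and Mrc1 rose, with 424 and 397 CPM in Brg1cKO against 46.3 and 71.7 CPM in Control (edgeR adjusted p = 0.0371). The Hand2, Gata4 and other member reads shared with these sums the direction between the groups. Within Control the cardiomyocyte sum was higher in replicate 1, as were 4 members, while 5 members were higher in replicate 2. The part of these cell types in the member reads was not tested.

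Several other lists lay level or lower. Endothelium markers summed to 3712 and 3657 CPM in Brg1cKO and to 3436 and 3221 CPM in Control. Neural crest and sympathetic markers summed to 419 and 409 CPM in Brg1cKO and to 462 and 425 CPM in Control, and pharyngeal and foregut endoderm markers to 115 and 123 CPM in Brg1cKO and 105 and 131 CPM in Control. Pharyngeal arch mesenchyme markers, the other main site of Hand2, summed to 452 and 387 CPM in Brg1cKO and to 601 and 617 CPM in Control, with 0 of 12 above both controls and 5 below. Visceral endoderm and liver markers summed to 34.0 and 55.7 CPM in Brg1cKO and to 62.1 and 31.6 CPM in Control, with Alb at 0 in all 4 libraries. Red blood cell markers summed to 227 and 216 CPM in Brg1cKO and to 634 and 653 CPM in Control.

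The protein-coding genes with the profile most like a member were found by Euclidean distance of log2(CPM + 0.5) over the 4 libraries, among 21819 genes. Nearest to Gata4 was Tbx20, at a distance of 1.13, followed by Irf5, Apbb1ip and Arhgef6 at 1.60, 1.61 and 1.69, and Irf5, an interferon regulatory factor of myeloid cells, was also next after Gata4 for Tbx20. Irf5 had 57.1 and 44.5 CPM in Brg1cKO and 1.43 and 4.14 CPM in Control. Nearest to Hand2 were the contractile genes Myl4, Myl7 and Mybpc3, at 1.26, 1.52 and 1.56, then Timm9 at 1.81. Mybpc3 had 43.4 and 54.8 CPM in Brg1cKO and 2.66 and 0 CPM in Control. These distances rest on 4 libraries, and in Control on a difference between 2 replicates. Gata4 and Tbx20 were both chosen as high in Brg1cKO and near 0 in Control, so their closeness supports nothing.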

How the data were processed

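Raw counts were deposited by the authors as whole reads per Ensembl gene identifier, not normalized. The submitters' processing notes list HISAT2, HTSeq, DESeq2 and mm10, without saying what each did. The strand setting of the counting is not given in the sources used here. The 5 lines of each table that name no gene held the records outside the gene shares given above and were left out. Symbols, positions and exon lengths came from GENCODE M21 (52403 of 52636 identifiers matched).

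The counts were fitted on the whole table with edgeR 4.0.16 in R 4.3.3 (minimum count of 10 by filterByExpr, 16557 genes kept, TMM scaling, robust quasi-likelihood F-test, Benjamini-Hochberg adjustment over all genes, called at adjusted p under 0.05). DESeq2 1.42.0 and limma 3.58.1 (voom) were alternatives, beside other scalings, filters and moderation, equal depth, a block for replicate number and leaving out each library.

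Group came from the sample titles. Nothing says that replicates came from separate embryos or sorts, so p-values reflect differences among 4 libraries that may be technical only. With 2 against 2 libraries the smallest two-sided permutation p is 0.333, so no permutation test is given. Counting intervals and floors cover counting error alone, because reads here carry no molecular identifiers.

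The members, the lists of genes and the tests were chosen with earlier results of these data known, and support nothing by themselves. Genes were named as follows: the members, Smarca4 and Sox2, the genes of smallest p and highest CPM in each list, paralogs, neighbours within 50 kb and the 4 nearest profiles. Some genes that this rule names are given by counts alone or are not reported here. Other single genes (such as Nppa, Mesp1, Oc90 and Mrc1) were named after their values were seen.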

Additional observations from a re-analysis of the deposited data

How the results depend on the processing

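The 10 members lay above both controls in both Brg1cKO libraries under the other scalings and at equal depth. They also did so without mitochondrial, ribosomal protein and haemoglobin genes. Leaving a library out cannot undo that order, and the members were chosen on this contrast, so nothing is read from it. Of 144 log2 fold changes of 9 members under 16 alternatives (Gata5 has a bound only), all were positive, the lowest being 0.45, and 15 moved by more than the replicate spread, 14 of them with a library left out. Hand2 reached 7.45 with limma voom. Counts of calls depended on the setting. Over all genes edgeR called 5; it called 417 with every gene of at least 1 count kept, 10 at a minimum count of 50 and 70 with the newer moderation, against 2422 by DESeq2 and 54 by limma voom. In the sarcomere list the 0 became 16 with every gene kept, 6 with the newer moderation, 19 by DESeq2 and 1 by limma voom. Among the other heart regulators the 0 became 2 with every gene kept, 1 with the newer moderation, 8 by DESeq2 and 1 by limma voom. With a library left out, the lone library is assumed to vary like the other group, and the calls ranged from 33 to 3519 over all genes, from 3 to 24 in the sarcomere list and from 1 to 11 among the other heart regulators. Over all genes there were 45 without Brg1cKO replicate 1 and 33 without Brg1cKO replicate 2, against 3519 without Control replicate 1 and 3355 without Control replicate 2. The cause was not tested. The other scalings, the fit that is not robust, equal depth and the removal of mitochondrial, ribosomal protein and haemoglobin genes gave 4 to 6 calls over all genes and 0 in both lists. The deviations of same-numbered replicates from their group means had a correlation of -0.00528 over genes. With 2 libraries per group both pairs must give the same value. It cannot show whether same-numbered samples shared a sort or litter. With the replicate number as a block, 140 genes were called over all genes, 10 in the sarcomere list and 2 among the other heart regulators. Of 192 log2 fold changes of 12 named genes outside the members, 0 changed sign, and 60 passed the threshold that the main value missed. Depth limits the genes at 0 in Control, where 3 counts over both controls are 0.0876 CPM.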
